A study of Rattus norvegicus and Mus musculus with 74 samples.

Results

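Bivalent promoters carry H3K4me3, a mark of active or poised promoters, together with H3K27me3, the mark laid down by Polycomb repressive complex 2. The regions described here are 827 mouse brain cortex regions that hold 1 promoter and 1 to 3 CpG islands and had an interval of both marks called in all 3 control libraries. They are 13.8% of the 5987 mouse regions with 1 promoter and 1 to 3 CpG islands, and the table holds 60110 merged regions in all. The regions were chosen by the intervals called in the control H3K4me3 and H3K27me3 libraries. For that reason levels of these marks in controls, and their differences from controls, are given as a description without a test.

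All mice were C57BL/6J, and the measured tissue was brain cortex. Control mice were labelled healthy and received vehicle. The other mice came from dams injected during pregnancy with poly I:C, a synthetic RNA that mimics a viral infection and is used to model maternal immune activation. They received either vehicle (vehicle group) or TAK-418 (TAK-418 group). TAK-418 is an inhibitor of LSD1, an enzyme that removes methyl groups from histone H3 lysine 4. There was no group of unexposed mice given TAK-418, so effects of the compound without the exposure were not measured. The labels give neither age nor dose. Each group had 3 libraries for each of 4 marks, 36 libraries in all. Whether the 3 libraries came from 3 different mice is not stated. The p-values therefore reflect the spread among libraries, part of which may be technical.

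CpG islands are stretches of DNA rich in unmethylated CpG at which trimethylation of H3K4 is set by default, and Polycomb adds H3K27me3 at islands of genes that are silent in a cell type. Both marks at 1 promoter are best known from embryonic stem cells, where they sit at genes of later development. Acetylation of lysine 9 (H3K9Ac) accompanies active promoters, while its trimethylation (H3K9me3) marks silent heterochromatin. Cortex is a mixture of cell types, so 1 allele with both marks cannot be told apart from some cells with one mark and other cells with the other, nor fewer marked cells from less mark per cell.

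Several libraries stood apart before any comparison. Vehicle library 3 of H3K27me3 had 1916 intervals over all regions, against 13596 and 10817 in the other vehicle libraries. Among H3K9me3 libraries, vehicle 1, vehicle 2 and TAK-418 2 had 446, 251 and 284 intervals, against up to 32258 in control 1. Control library 1 of H3K4me3 had the highest member signal of its mark, with a median of 6.76 against 4.30 and 4.01 in the other controls. Read counts behind the signal are unknown, so no counting error can be given.

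The 827 regions belong to 826 genes, and 821 hold exactly 1 listed gene start. Their median length was 24599 bp, from 3999 to 254799 bp. The 4244 single-promoter island regions with H3K4me3 in all 3 controls and no H3K27me3, called H3K4me3-only here, had a median length of 10599 bp. The 173 regions of the opposite kind, H3K27me3-only, had 26999 bp. More than 1 island was present in 135 regions with 2 and 45 with 3, or 16.3% and 5.44%, against 5.73% and 0.495% of H3K4me3-only regions. Longer merged regions can hold more islands by length alone, and a mark that spreads widely makes a longer region, so length and island number cannot be told apart from the rule. On the X chromosome 9 of 260 single-promoter island regions were bivalent (3.46%).

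In controls the members differed widely in the balance of the signals of both marks. Signals of different antibodies are not on a common scale, so the balance ranks members and does not say which mark is more abundant. The difference between the marks, log2(H3K27me3 + 1) minus log2(H3K4me3 + 1), ran from -2.60 to 2.10 with a median of 0.06. The end richest in H3K27me3 held Dmrta2, Ptf1a, Neurog2 and Gsx1, which all encode transcription factors. Dmrta2, a patterning factor of the early forebrain, at chr4:109967400-110014199 (mm10, as the deposited table gives it) had control H3K27me3 signal of 10.9, 14.8 and 15.3 and control H3K4me3 signal of 3.11, 2.09 and 2.08. Ptf1a, a factor of pancreas and hindbrain neurons, at chr2:19412600-19464999 had H3K27me3 of 8.07, 11.2 and 11.7 and H3K4me3 of 2.50, 1.74 and 1.77. Neurog2, the proneural factor, and Gsx1, a homeobox factor of ventral progenitors, also lay at this end.

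The other end was led by Pcdh17, Grin2a, Kif26b, Car10 and Atp1b1. Pcdh17, a protocadherin, at chr14:84440400-84453599 had control H3K4me3 of 58.4, 26.7 and 25.5 and H3K27me3 of 4.06, 5.27 and 5.20. Grin2a, which encodes an NMDA receptor subunit, at chr16:9983600-9997799 had H3K4me3 of 38.3, 19.6 and 16.7 and H3K27me3 of 2.93, 3.41 and 3.82. Atp1b1 encodes a subunit of the sodium-potassium pump. Tbr1, a T-box factor of deep-layer cortical neurons, was high in both marks, with H3K4me3 of 20.1, 10.3 and 9.99 and H3K27me3 of 9.41, 12.9 and 13.3. The plot of control levels shows a continuous cloud rather than separate groups.

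**Figure D1:**
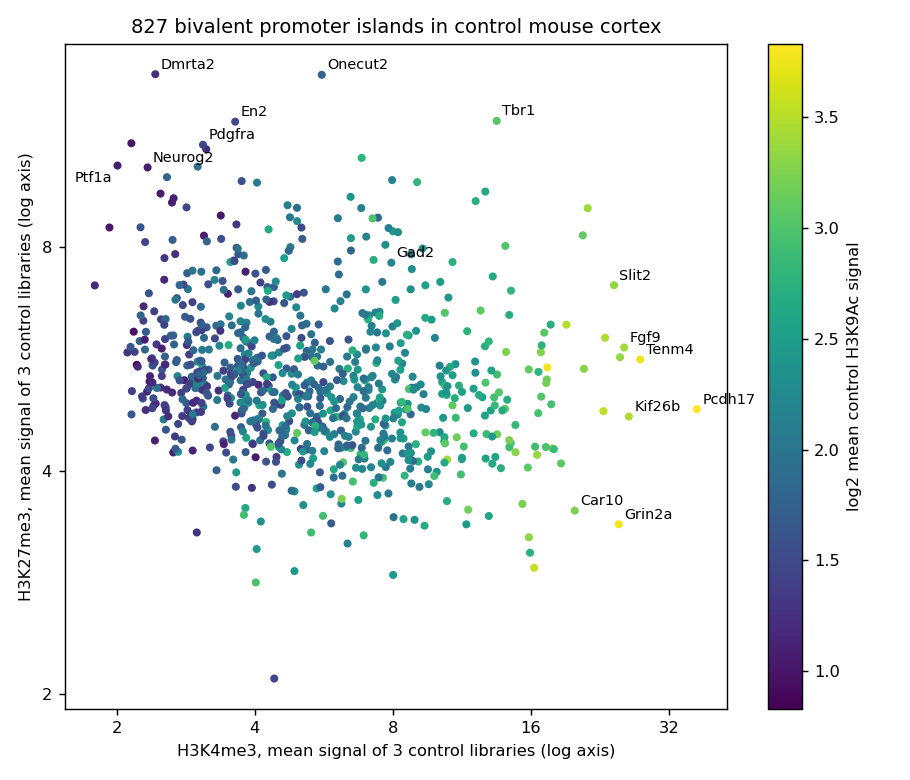
Control H3K4me3 (horizontal, mean signal of 3 libraries, log axis) against control H3K27me3 (vertical, log axis) at each of the 827 bivalent promoter islands, coloured by log2 control H3K9Ac signal. H3K9Ac follows H3K4me3 from Dmrta2 at the left to Pcdh17 at the right.

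Regions that just missed the rule gave the edge of the class. The 249 regions with H3K4me3 in 3 controls and H3K27me3 in only 2 had median H3K27me3 of 3.93, and members had 5.18. The 36 regions with H3K27me3 in 3 controls and H3K4me3 in 2 had median H3K4me3 of 2.43, and members had 5.02.

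H3K9Ac, which the rule did not use, was called in all 3 controls at 563 members (68.1%), compared with 94.7% of H3K4me3-only regions. It was called in no control at 84 members. The members were ranked by the balance of both marks and split into 3 groups of like size. H3K9Ac was called in all 3 controls at 93.5% of the 276 members richest in H3K4me3, 69.1% of the middle 275 and 41.7% of the 276 richest in H3K27me3. Median control H3K9Ac was 5.76, 4.02 and 3.12 in this order. H3K9me3 was called in no control at 642 members (77.6%) and in all 3 at 30, and those 30 had a median length of 65399 bp.

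**Figure D2:**
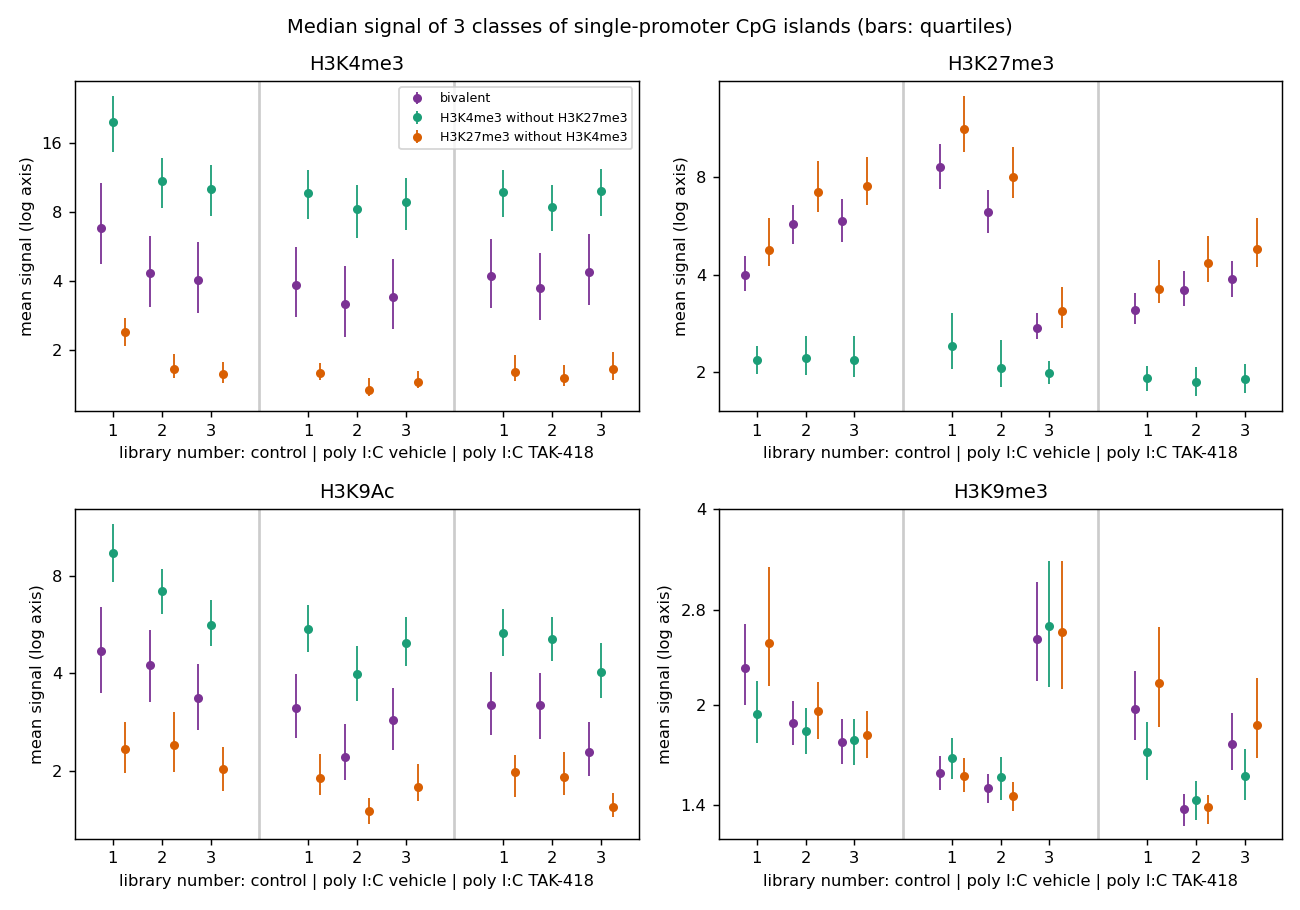
Median mean signal (log axis, bars are quartiles) of bivalent, H3K4me3-only and H3K27me3-only islands in each library of the 4 marks, by group. Bivalent islands lie between the other classes in H3K4me3 and H3K9Ac, and vehicle library 3 is low in H3K27me3 in every class that carries the mark.

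Many developmental, channel and receptor genes lay at members. The lists and the members were chosen with earlier results known, so the shares are a description. Of the 125 genes of 5 transcription factor lists at single-promoter islands, 56 were at members (44.8%), against 13.8% of all genes at such regions. Over all lists together it was 176 of 404 (43.6%), with neurotransmitter receptors at 21 of 40 (52.5%) and potassium channels at 14 of 31 (45.2%). Homeobox genes had 15 of 37, basic helix-loop-helix genes 13 of 28, SOX, PAX and FOX genes 8 of 18, and zinc finger and T-box genes 20 of 42. In the same order 15, 7, 4 and 11 genes of these lists lay at H3K27me3-only regions, which are 2.89% of single-promoter islands. A high share of transcription factor genes is thus not particular to members. Of neurotransmitter receptor and potassium channel genes, 1 and 0 lay at H3K27me3-only regions. None of the 39 Hox genes lay in a single-promoter island region, so the Hox clusters are outside the class. Secreted morphogens had 13 of 18, with Wnt5a, Wnt2b and Bmp7 leading in H3K27me3, and their receptors and antagonists 22 of 40.

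Cell type genes of the brain were also among the members. Of interneuron genes at such islands, 8 of 10 were at members, including Gad2, an enzyme of GABA synthesis, whose control H3K4me3 was 11.1, 6.19 and 6.58 and H3K27me3 6.51, 7.92 and 8.45. Striatal genes had 7 of 9, excitatory neuron genes 7 of 12, and endothelial and pericyte genes 6 of 8, with Cldn5, a tight junction protein of the blood-brain barrier. Oligodendrocyte lineage genes had 3 of 5, and 2 lay at H3K4me3-only regions. Of the 3, Pdgfra, the receptor that marks oligodendrocyte precursors, had control H3K27me3 of 8.04, 12.5 and 12.4 and H3K4me3 of 4.05, 2.65 and 2.55. Housekeeping genes had 0 of 10, synapse genes 1 of 13 and chromatin regulators 1 of 21.

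Lists differed in where they lay between the marks. Homeobox members had median control H3K27me3 of 8.00 and H3K4me3 of 4.12. Potassium channel members had 4.95 and 8.43, and neurotransmitter receptor members 4.93 and 8.03. Axon guidance members had 4.89 and 7.31, with Slit2, a secreted repellent, at H3K4me3 of 37.7, 18.1 and 17.1.

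The class was partly shared with rat cortex, where the same rule was applied to control libraries of Sprague-Dawley rats and genes were matched by symbol. Of the 826 member genes, 582 lay at single-promoter islands in rat, and 471 of these were bivalent there (80.9%). Of 2741 H3K4me3-only genes, 202 were (7.37%). The 471 genes were 53.5% of the 881 matched rat bivalent genes, out of 1426 rat bivalent genes in all.

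In exposed mice both marks were called in all 3 libraries at 431 members (52.1%) in the vehicle group and at 577 (69.8%) in the TAK-418 group. Over all single-promoter islands the same criterion held at 443 regions (vehicle) and 607 (TAK-418), beside 827 in controls. The vehicle count of members rests on vehicle library 3 of H3K27me3, which had intervals at 470 members. H3K27me3 was called in at least 2 of 3 libraries at 824 members in the vehicle group and at 723 in the TAK-418 group. It was called in no TAK-418 library at 31 members and in no vehicle library at 0. Counts by these criteria were not made over all regions. Per library, H3K27me3 was called at a mean of 85.5% of members in the vehicle group and 85.1% in the TAK-418 group. Over all mouse regions these means were 14.6% and 7.70%, a larger fall than at members. The vehicle means take in vehicle library 3, which had few intervals.

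H3K4me3 at the bivalent promoters had higher means in the TAK-418 than in the vehicle group, but no member passed the test. The median log2 difference was 0.17, against 0.10 over all 12439 tested regions and 0.08 over the H3K4me3-only regions. TAK-418 had the higher mean at 785 of 827 members (94.9%), against 76.1% of all tested regions. Groups did not overlap at 196 members (23.7%), 194 of them higher with TAK-418, where the share over all regions was 11.2%. By limma with Benjamini-Hochberg adjustment, 0 members were called (0% of all regions), and 18 had an unadjusted p under 0.05. The latter count was not made over all regions. Without control library 1, which enters through the shared estimate of spread, 40 members were called (4.84%), and 1.71% of all tested regions. Member medians by library were 3.83, 3.16 and 3.39 in the vehicle group and 4.19, 3.70 and 4.38 in the TAK-418 group, so the groups overlapped.

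The result depended on how libraries were scaled. The library names carry a tag, mm-dm, that no source used here explains, so whether the deposited signal was already scaled to an added reference is not known here. After each library's median was subtracted, the member median was 0.06. The TAK-418 mean was the higher at 73.0% of members, beside 48.7% of all tested regions. By limma 2 members were called, Fzd5 and Ptger4, which is 0.242% of members. Of all regions 0.281% were called (0.0643% higher and 0.217% lower). After quantile normalization the member median was 0.06, and 72.8% of members were higher, beside 53.6% of all tested regions. In that setting 10 members were called (1.21%), all higher, where 0.707% of all regions were (0.354% higher and 0.354% lower). H3K4me3-only regions had medians of -0.03 and 0.01 under these scalings. The plot of the 3 scalings shows the members to the right of the other regions in each.

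**Figure D3:**
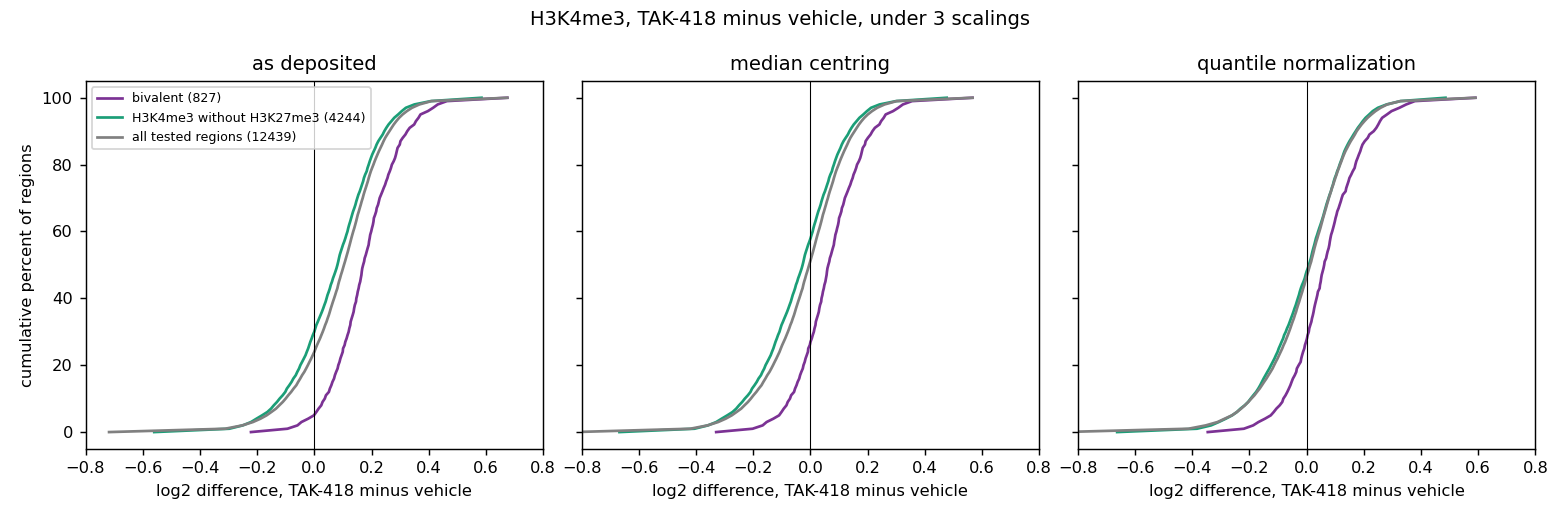
Cumulative percent of regions (vertical) by log2 difference of H3K4me3, TAK-418 minus vehicle (horizontal), for bivalent, H3K4me3-only and all tested regions, as deposited and after 2 rescalings. The member median is 0.17 as deposited and 0.06 after either rescaling.

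Members start from lower H3K4me3 than H3K4me3-only regions, so the difference was also read at matched control levels. Among regions with control H3K4me3 of 8 to 16, the median difference was 0.19 at 156 members and 0.08 at 2350 H3K4me3-only regions. At 16 and over it was 0.26 at 32 members and 0.06 at 1363 H3K4me3-only regions. At 4 to 8, the band with the most members, it was 0.19 at 356 members and 0.13 at 517 H3K4me3-only regions. Below 4 it was 0.15 at 283 members and 0.14 at 14 H3K4me3-only regions. The difference between the classes was not tested.

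**Figure D4:**
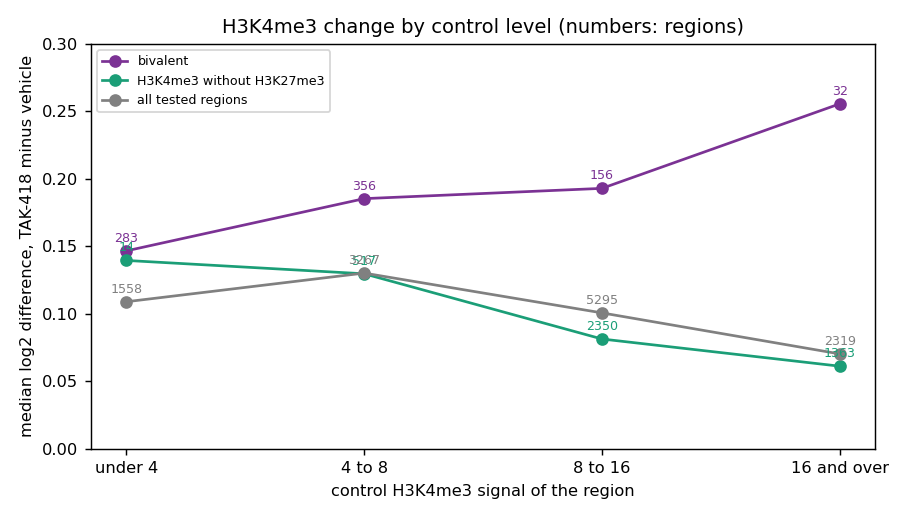
Median log2 difference of H3K4me3, TAK-418 minus vehicle (vertical), by control H3K4me3 signal (horizontal), with the number of regions at each point. The member medians run from 0.15 to 0.26, and those of H3K4me3-only regions from 0.14 down to 0.06.

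Of the 10 promoters called after a rescaling, 5 are given with their values in each vehicle and TAK-418 library. They were chosen by this same comparison, so a lack of overlap between its groups adds no support. Fzd5, a Wnt receptor, at chr1:64730800-64741599 had H3K4me3 of 9.20, 6.14 and 6.97 in vehicle libraries and 13.0, 10.4 and 12.5 in TAK-418 libraries. All TAK-418 values were above all vehicle values, and controls were 20.2, 11.8 and 10.2. The log2 difference was 0.63 (SE 0.28, n = 3 per group) with a limma adjusted p of 1.00 as deposited, and 0.57 with an adjusted p of 0.024 after quantile normalization. Ptger4, a prostaglandin E2 receptor, at chr15:5237400-5251999 had 4.07, 3.40 and 4.16 in vehicle and 6.32, 6.22 and 7.85 in TAK-418 libraries. These groups did not overlap either, and the log2 difference was 0.68 (SE 0.24), the largest among the members.

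Fst, which encodes follistatin, an antagonist of activin, had 2.58, 2.30 and 2.17 in vehicle and 4.33, 3.34 and 4.25 in TAK-418 libraries. Col12a1, a collagen chain, had 3.28, 1.98 and 2.22 against 4.37, 3.69 and 4.87. Frzb, a secreted Wnt antagonist, had 8.01, 5.84 and 7.47 against 10.1, 8.69 and 10.7. In each of these the groups did not overlap. Tchh, Pappa, Islr2, Ism2 and D930020B18Rik were the remaining members called after quantile normalization, and in none of the 10 was the adjusted p as deposited under 0.05. The lowest-p members in the other direction were Lyn, Ctsh and Ptx3, with log2 differences of -0.22, -0.21 and -0.14.

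**Figure D5:**
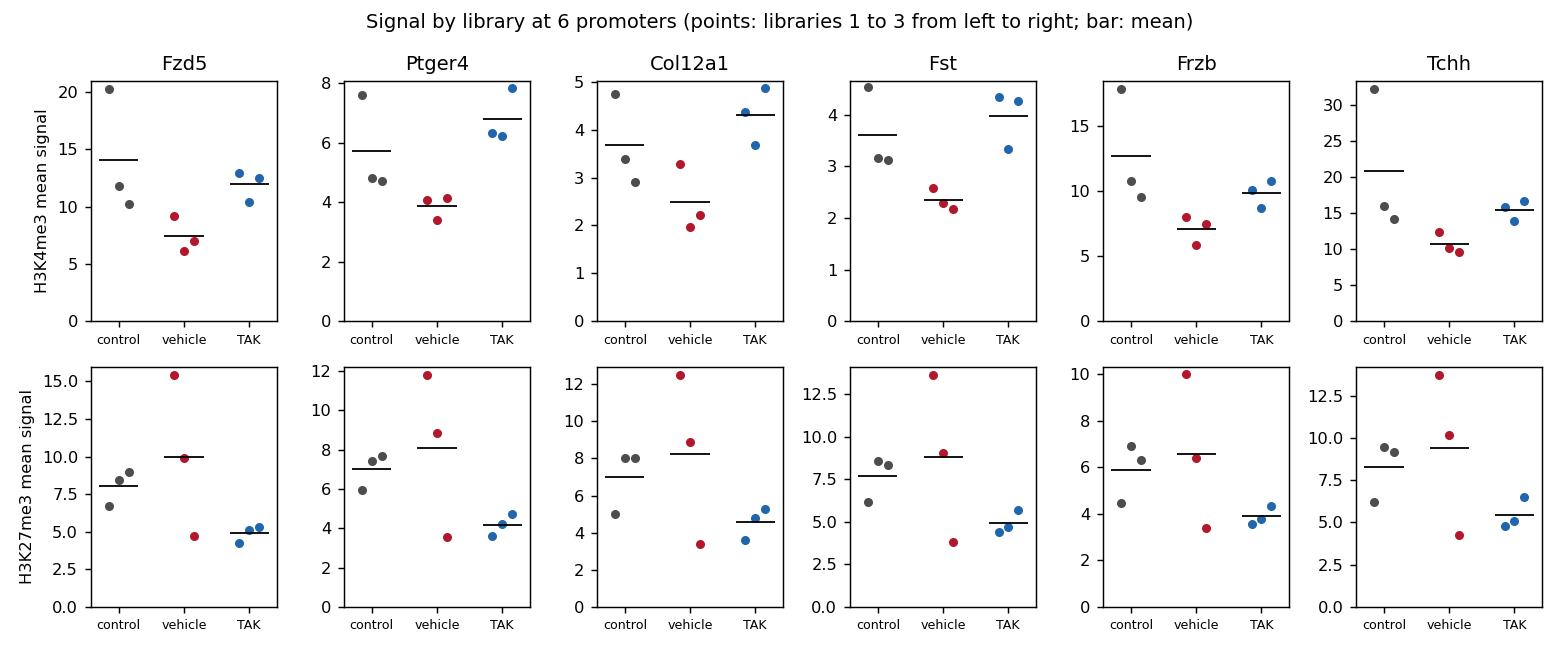
Signal in each library (points, with the mean as a bar) of H3K4me3 and H3K27me3 at Fzd5, Ptger4, Col12a1, Fst, Frzb and Tchh. The TAK-418 points lie above the vehicle points in H3K4me3, the comparison by which these promoters were chosen. In H3K27me3, vehicle library 3 lies far below the other 2 vehicle libraries.

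By gene group, no list member passed the test for H3K4me3 in either direction. List medians of the TAK-418 minus vehicle difference ran from 0.10 at the 5 imprinted and 0.13 at the 7 striatal members to 0.28 at the 8 cadherin and 0.29 at the 8 neural progenitor members, beside 0.17 over all members. Homeobox members had 0.20 and axon guidance members 0.25.

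H3K27me3 at members was lower in the TAK-418 than in the vehicle group at 827 of 827. Of all 9238 tested regions, 0 had the higher mean in the TAK-418 group, so this direction was not particular to members. The median log2 difference of members was -0.50, beside -0.46 over all tested regions. After median centring the member median was -0.046 with 26.6% of members higher, beside 45.9% of all tested regions. After quantile normalization it was -0.0055 with 46.9% higher, beside 52.6%. No member was called by limma (0% of all regions), 0 had an unadjusted p under 0.05, and groups did not overlap at 4 members (0.325% of all regions). Member medians were 8.60, 6.24 and 2.73 in vehicle libraries and 3.10, 3.58 and 3.87 in TAK-418 libraries. Vehicle libraries 1 and 2 were above every TAK-418 library, and vehicle library 3 was below every one. Without vehicle library 3, all 827 members were called lower, with a median of -0.89, as were 9235 of the 9238 tested regions. Ly75, Fgf16 and Fbn2 had the smallest p among the members, with log2 differences of -0.77, -0.70 and -0.65.

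H3K9Ac could be tested at 681 members with an interval in at least 3 of 9 libraries, so members with little H3K9Ac are not in these counts. It was lower in the vehicle group than in controls at all 681. Of all 12747 tested regions only 3 were higher (0.0235%), so this direction was not particular to members. By limma 486 members fell (71.4%), where 64% of all tested regions fell. Groups did not overlap at 527 of the 681 (77.4%), beside 70.5% of all tested regions. The median log2 difference was -0.46, beside -0.53 over all tested regions. After median centring the member median was 0.07 with 69.8% of members higher, beside 51.8% of all tested regions. After quantile normalization it was -0.0055 with 47.6% higher, beside 46.6%. No region was called after either rescaling (0% of all regions), and 0 members were called without the interval filter or with the highest signal of each region in place of the mean. Leaving out control library 1 or 2, vehicle library 2 or 3, or TAK-418 library 2 also left 0 calls, and leaving out TAK-418 library 1 left 239 (35.1% of members and 33.9% of all tested regions). Among the falls without overlap, those of Zcchc24, Grin1 and Padi2 were the largest at named genes. Grin1, the obligatory NMDA receptor subunit, at chr2:25301600-25323199 had H3K9Ac of 17.0, 13.5 and 10.2 in controls and 8.92, 5.47 and 8.12 in vehicle libraries, without overlap. It fell by 0.78 on the log2 scale (SE 0.27, limma adjusted p = 0.032). Prkcz, an atypical protein kinase C, had 11.0, 10.1 and 7.32 against 6.56, 3.67 and 5.74.

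Between the TAK-418 group and controls the median H3K9Ac difference of members was -0.41, beside -0.50 over all tested regions. It was 0.097 after median centring and 0.013 after quantile normalization. No member was called by limma (0% of all regions), and the smallest adjusted p of members was 0.056. An unadjusted p under 0.05 was found at 466 members, a count not made over all regions. The TAK-418 mean was the higher at 1 member and at 3 of all 12747 tested regions. Groups did not overlap at 428 members, beside 68.1% of all tested regions. Without control library 3, 626 members were called lower, which is 91.9% of members and 94.7% of all tested regions. Without vehicle library 2, 363 were, or 53.3% of members and 57.1% of all tested regions. A call in one comparison and none in the other does not show a difference between them. Between TAK-418 and vehicle libraries the median was 0.05, beside 0.04 over all tested regions, and it turned to -0.056 without vehicle library 2, -0.0078 without TAK-418 library 1 and -0.0047 without TAK-418 library 2, and was 0.17 without TAK-418 library 3. There were 0 members called (0% of all regions) and 0 at an unadjusted p under 0.05 by limma. Groups did not overlap at 5 members, beside 1.55% of all tested regions. Cast, a calpain inhibitor, had 2.64, 2.33 and 3.21 in vehicle and 3.72, 4.51 and 3.46 in TAK-418 libraries, with a limma adjusted p of 1.00.

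H3K9me3 could be tested at 152 members, and no member was called in any of the 3 comparisons by limma (0% of all regions in each), with 0 members at an unadjusted p under 0.05 in each. The median was 0.05 between the exposed groups, -0.21 from control to vehicle and -0.16 from control to TAK-418, beside 0.23, -0.49 and -0.26 over all 17543 tested regions. All 3 member medians changed sign after median centring, to -0.18, 0.27 and 0.096, and after quantile normalization, to -0.15, 0.19 and 0.043. With 1 library left out, the median between the exposed groups ran from -0.073 without TAK-418 library 1 to 0.25 without vehicle library 3. Vehicle library 3 had intervals at 615 members and vehicle libraries 1 and 2 at 4 and 1, so the vehicle intervals rest mainly on 1 library. All 3 libraries enter the vehicle mean. Over all 827 members, mean log2(signal + 1) was 1.36, 1.31 and 1.87 in vehicle libraries 1, 2 and 3. Of the 152 members, 3 had the higher mean in the vehicle group than in controls. They were Grb10, an imprinted growth regulator, Zfp36l2 and Dmrta2, and all 3 changed sign when vehicle library 3 was left out. Vehicle libraries 1 and 2 and TAK-418 library 2 had so few member intervals that the filter was passed mainly through the other libraries. Without the filter, the medians of all 827 members were -0.051 between the exposed groups, and -0.083 (vehicle) and -0.14 (TAK-418) against control. Over all 60110 regions they were 0.10, -0.32 and -0.20.

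Compared with controls, as a description, the member median of H3K4me3 was -0.41 in the vehicle group and -0.23 in the TAK-418 group, beside -0.46 and -0.37 over all tested regions. Groups did not overlap at 488 and 92 members, beside 52.5% and 29% of all tested regions. These comparisons share the control libraries, and control library 1 was the highest. For H3K27me3 the medians were 0.05 and -0.44, beside 0.05 and -0.40 over all tested regions, and groups did not overlap at 0 and 518 members, beside 0% and 47.3% of all tested regions. The vehicle median ran from -0.24 to 0.44 with 1 library left out, lowest without vehicle library 1 and highest without vehicle library 3, and the TAK-418 median was -0.048 after median centring and -0.0059 after quantile normalization. For H3K4me3 the vehicle median was 0.073 and -0.026, and the TAK-418 median 0.14 and 0.037, after these rescalings.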

How the data were processed

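Chromatin of frozen, formaldehyde-fixed mouse cortex was immunoprecipitated and sequenced, per the labels' protocols. Reads were aligned with BWA 0.7.12 to mm10 (mouse) and rn5 (rat), per the submitters' processing notes. How intervals were called, how wide the bins were and how libraries were scaled is not given in the sources used here. The deposited values are mean and highest signal, and a called interval (present or absent), over merged regions, per the file headers, and no read counts lie behind them.

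The mean signal of each region was taken as log2(signal + 1). Regions with an interval in at least 3 of 9 libraries of a mark were tested with limma 3.58.1 (trend and robust) in R 4.3.3, all 9 libraries in the fit, and p-values adjusted by Benjamini-Hochberg over all tested regions, called under 0.05. The fit was run on simulated data with known changes and independent noise for each region. Those data held no shifts of whole libraries, so they do not show how the fit behaves under such shifts. Tables were made with Python 3.11.15 and pandas 2.3.3. Alternatives were rescalings, pseudocount 0.5, no filter, highest signal, 6 libraries, a replicate block, leaving out each library and other membership rules. Named members were the extremes of control level, the smallest p or the largest called changes, and the list members highest in H3K27me3. The members and lists were chosen with earlier results of these data known. The 10 members called after rescaling were named after their values were seen. Input libraries were not used here, and 1 member that the naming rule selects is not reported here.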

Additional observations from a re-analysis of the deposited data

How the results depend on the processing

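Counts of members called depended on scaling and on single libraries. H3K4me3, TAK-418 against vehicle, gave 2 after median centring, 10 after quantile normalization and 14 with only the 6 libraries compared. The 14 were 1.69% of members, beside 0.715% of all tested regions. With 1 library left out this comparison gave 0 to 40, 40 without control library 1. H3K27me3, TAK-418 against vehicle, gave 0 to 827, 827 without vehicle library 3. H3K9Ac, vehicle against control, gave 0 after median centring, quantile normalization, no interval filter or highest signal. With 6 libraries it gave 309, or 45.4% of members beside 37.5% of all tested regions. Of the members with both marks in all 9 libraries, 246 were called (74.5%, beside 64% of all tested regions). With 1 library left out, H3K9Ac of vehicle against control gave 0 to 649. It gave 0 without control 1, control 2, vehicle 2, vehicle 3 or TAK-418 2. Without control 3 it gave 649, or 95.3% of members beside 93.2% of all tested regions. Without TAK-418 1 it gave 239, or 35.1% of members beside 33.9% of all tested regions. H3K9Ac, TAK-418 against control, gave 0 to 626, 626 without control 3 and 363 without vehicle 2. The cause was not tested. The H3K4me3 share of members higher with TAK-418, an alternative chosen after seeing the data, ran from 71.9% to 96.3% over all settings. The share of all tested regions ran from 38.8% to 84.0% over the same settings.

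Medians against control moved with scaling. After median centring and quantile normalization, H3K4me3 was 0.073 and -0.026 for the vehicle group and 0.14 and 0.037 for the TAK-418 group, and H3K27me3 was -0.048 and -0.0059 for the TAK-418 group. With highest signal, H3K4me3 of the TAK-418 group was -0.53. Leaving out 1 library gave -0.52 to -0.20 and -0.34 to -0.030 for H3K4me3, and -0.24 to 0.44 and -0.59 to -0.36 for H3K27me3.

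No source says that replicate numbers pair the samples. Correlations of same-numbered deviations ran from -0.15 to 0.29 in H3K4me3, -0.50 to 0.33 in H3K27me3, -0.60 to 0.62 in H3K9Ac and -0.42 to 0.52 in H3K9me3, and 4, 3, 1 and 4 of 9 pairs correlated best with their own number. The 3 H3K27me3 pairs of control with TAK-418 gave 0.33, 0.11 and 0.16, a comparison described here without a test. With the replicate block, H3K9Ac gave 527 members called for TAK-418 against control (77.4%, and 84.5% of all regions) and 596 for vehicle against control (87.5%, and 83.4% of all regions), and the other counts stayed at 0.

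Signs of single members reversed mainly in H3K9me3. With 1 library left out, TAK-418 against vehicle ran from -0.63 to 0.16 for Grb10, -0.15 to 0.068 for Igf1r and -0.53 to 0.25 for Zfp36l2, each highest without vehicle 3. Vehicle against control ran from -0.55 to 0.28 for Dmrta2, -0.26 to 0.52 for Grb10 and -0.47 to 0.31 for Zfp36l2, each lowest without vehicle 3. After median centring and quantile normalization, vehicle against control became 0.27 and 0.16 at Cldn10 and 0.20 and 0.089 at Stx18. With pseudocount 0.5 it became -0.022 at Dmrta2 and -0.020 at Zfp36l2. For TAK-418 against control, Cdk18, Gldc and Igf1r became 0.073, 0.045 and 0.086 after median centring. H3K9Ac at Cast, TAK-418 against control, ran from -0.12 to 0.14 with 1 library left out, and H3K4me3 at Ptx3 became 0.041 with highest signal.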
